A study of Mus musculus with 9 samples.

Results

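The livers of 3 male mice fed a high-fat diet (HFD) were compared with the livers of 3 male mice fed chow, gene by gene across the whole array. Both groups were C57bl/6J mice of 16 weeks of age that had eaten their diet for 12 weeks. Fat supplied 60 kcal% of the high-fat diet (Research Diets D12492), and the labels give no composition for the chow, so the diets differ in more than their fat. The 6 arrays, 1 per liver, were chosen by their group titles from 9 in the series. The other 3 came from mice whose high-fat diet held 40 g of APS (Astragalus polysaccharides) per kg, and they enter only alternative fits. Livers were taken from a set of 24 mice after inspection of HE-stained sections and triglyceride measurement, so all p-values measure the spread between 3 and 3 selected livers.

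Liver takes up fatty acids, stores them as triglyceride in lipid droplets, burns them in mitochondria and peroxisomes, or exports them in lipoproteins. A mouse liver that stores much fat turns on genes of fat cells, such as those for droplet coat proteins, and resident and recruited macrophages take up lipid and signal to matrix-producing stellate cells. Hepatocytes seldom divide in the adult, and many of their P450 enzymes differ between males and females through the pattern of growth hormone secretion. RNA of whole liver tissue was measured, so that fewer cells of a type and less RNA per cell cannot be told apart.

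Levels are given as the log2 of the scanner's processed signal minus the 75th percentile of the array. A level of 0 is thus the 75th percentile itself, written here as a relative level, and it compares arrays for the same probe, not different genes. A difference is HFD minus chow on this log2 scale, with its SE, and a gene was called when limma's Benjamini-Hochberg adjusted p, over all 16557 genes tested, was under 0.05. The tissue label was borne out by hepatocyte transcripts: all 14 hepatocyte markers were measured, and Alb, the albumin gene, stood at 10.14, 10.11 and 9.89 in chow 1 to chow 3 and 10.07, 9.92 and 9.78 in HFD 1 to HFD 3.

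Of 16557 genes tested, 731 were higher in HFD liver (4.42%) and 1237 were lower (7.47%), so 11.9% were called in all. The groups did not overlap, without regard to the test, for 17.2% of genes in the upward and 23% in the downward direction. They did not overlap for any of the 731 higher and 1237 lower genes, so this adds nothing to a call. The median difference was -0.04. The typical call was modest, with a median fold of 1.77 among both the higher and the lower genes, and 65 higher and 46 lower genes passed 4-fold. Calls were kept in each of the 6 fits that left out 1 array by 87 higher and 95 lower genes. Of these, 68 higher and 35 lower genes were well above background on all 6 arrays.

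All chow arrays lay on 1 slide and all HFD arrays on another, so that slide and diet cannot be told apart. The slides differed in background: negative control spots read 48.9 to 49.4 on the chow arrays and 64.2 to 68.4 on the HFD arrays, with 61.5 to 68.4% of spots well above it on chow arrays and 50.4 to 53.9% on HFD arrays. The excess of lower calls sat among dim genes. The dimmest 3312 genes held 444 of the lower calls, and the brightest 3312 genes held 111 of them. Of the lower calls, 366 had no HFD array well above background, and 529 carried a clone-like or unnamed identifier. Among the 13348 genes well above background on all 6 arrays, 649 were higher and 749 lower. Under normexp background correction the calls were 762 higher and 767 lower, with 49.8% of calls higher against 37.1% here. That share was 67.1% without a filter on dim probes. The part of the slide in the dim falls was not tested, and the falls described in most detail are those measured on every array.

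**Figure D1:**
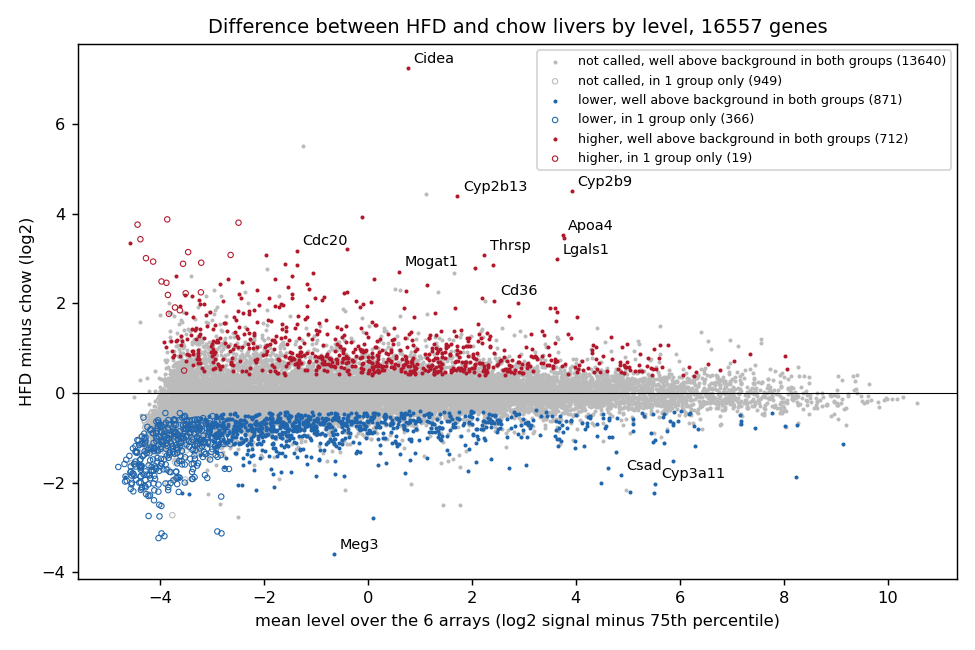
Difference between HFD and chow liver (log2, vertical) against the mean relative level over the 6 arrays (log2, horizontal) for each gene tested; red genes were called higher, blue genes lower and grey genes not called, and open circles are genes well above background in 1 group only. Open blue circles crowd the left edge (366 genes), and the points at the top are Cidea at 7.25 and Cyp2b9 at 4.51.

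The largest rise was that of Cidea, a lipid droplet protein of brown fat and fatty liver that drives droplet fusion. Its relative level was -2.63, -3.08 and -2.84 in chow 1 to chow 3 and 6.10, 2.98 and 4.11 in HFD 1 to HFD 3. No HFD value came near the chow values, and HFD 1 was the highest by far. The difference was 7.25 ± 0.73 (adjusted p = 0.00697), a 152-fold rise, and it was 6.40 without HFD 1 and 7.96 without HFD 2. Next came 2 P450 genes of the Cyp2b family, described with the other P450 genes later, and Adgrv1, a very large adhesion receptor, with levels of -2.17, -2.32 and -1.72 in chow 1 to chow 3 and 2.43, 1.78 and 1.33 in HFD 1 to HFD 3 and a difference of 3.92 ± 0.30 (adjusted p = 0.00409). Apoa4, the apolipoprotein of triglyceride-rich particles, stood at 2.35, 1.42 and 2.20 in chow 1 to chow 3 and 5.64, 5.73 and 5.16 in HFD 1 to HFD 3. It rose by 3.52 ± 0.28 (SE; adjusted p = 0.00444). Lgals1, which codes for galectin 1, a secreted sugar-binding protein, stood at 2.34, 2.19 and 1.91 in chow 1 to chow 3 and 5.37, 4.87 and 5.17 in HFD 1 to HFD 3. It rose by 2.99 ± 0.18 (SE; adjusted p = 0.00227). In both genes the spread within a group was small beside the gap between groups. Mogat1 and Thrsp, of lipid synthesis, and Cdc20, of mitosis, were also among the 20 largest rises, counted here without clone-like names (Rik, Gm and numbered transcripts or probes), some of which rose as much.

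The arrays read each transcript with probes of 60 bases, and 3 of the probes behind these rises are shown in lower case, 5′ to 3′, as deposited, to identify what was measured. Their mm9 positions are chr1:78534556-78534615 and chr1:78525761-78525820 for Mogat1 and chr9:46049661-46050404 for Apoa4, where the stretch of genome is longer than the probe.
Mogat1, first probe: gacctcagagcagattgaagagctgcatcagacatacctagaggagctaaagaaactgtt
Mogat1, second probe: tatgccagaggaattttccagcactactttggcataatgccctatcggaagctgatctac
Apoa4: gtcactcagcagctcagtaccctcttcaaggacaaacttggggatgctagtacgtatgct
The first Mogat1 probe gave a difference of 3.02 and the second 3.74, beside 2.70 for the brightest of the 3 Mogat1 probes, which stands for the gene in all other values.

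Of these 20 rises, 4 have only a lower bound, because no chow array was well above background. Lockd, a long noncoding RNA, was at least 11.6-fold higher (adjusted p = 0.00341), Klk1b11, a kallikrein-related protease, at least 8.24-fold (adjusted p = 0.0405), Cenpm, a centromere protein, at least 4.9-fold (adjusted p = 0.0239), and Fam183b at least 4.78-fold (adjusted p = 0.00956). Genes such as these passed the filter on dim probes only through the HFD arrays, and all 18 of them were called, so their adjusted p-values are no support for a difference. The bounds set the mean of the HFD arrays against the lowest signal that counted as well above background. For Fut10, a fucosyltransferase gene also among the 20, no difference is given: its tested probe was well above background on no chow array, and without a filter on dim probes the gene's difference was 0.26 (adjusted p = 0.736). The other members of the 20 were Grin3b, a glutamate receptor subunit (3.09 ± 0.32, adjusted p = 0.00723), Anxa8 (2.88 ± 0.50, adjusted p = 0.0229), Ifi27l2b (2.86 ± 0.29, adjusted p = 0.00708), Smpd3 (2.85 ± 0.64, adjusted p = 0.0413) and Ly6d, a membrane-anchored Ly6 protein (2.79 ± 0.61, adjusted p = 0.0387). Cidea, Adgrv1, Apoa4, Lgals1, Grin3b and Ifi27l2b kept their calls in each of the 6 fits that left out 1 array. Anxa8, Smpd3 and Ly6d each lost the call without 1 or more of chow 1, chow 2, chow 3, HFD 1, HFD 2 and HFD 3 (adjusted p up to 0.126). Smpd3 and Ly6d also missed the threshold with slide as a random block. Ly6d missed it with all 9 arrays in the fit. Anxa8 was 3.47 and Smpd3 3.46 without chow 1, and Ly6d was 2.08 without HFD 3.

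The largest fall was that of Meg3, an imprinted long noncoding RNA. It stood at 1.62, 0.88 and 0.97 in chow 1 to chow 3 and -3.10, -2.54 and -1.69 in HFD 1 to HFD 3. It fell by 3.60 ± 0.38 (SE; adjusted p = 0.00755), with 2 of 3 HFD arrays well above background. Of the 20 largest falls, again without clone-like names, 14 have only a lower bound, from 1.1 to 4.04-fold, because no HFD array was well above background. The largest bounds were those of Srgap3, a GTPase-activating protein, at least 4.04-fold lower, and Adgrf1, an adhesion receptor, at least 3.25-fold lower. Others were Crhr2, a receptor of corticotropin-releasing hormone, at least 1.66-fold lower, and Foxo4, a forkhead factor, at least 1.78-fold lower. Such genes passed the filter on dim probes only through the chow arrays. Of 1316 such genes 366 were called lower, so their adjusted p-values are no support for a fall. The higher background of the HFD slide moves with these dim falls, and its part in them was not tested.

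Among genes with a symbol that were well above background on all 6 arrays, the largest falls were Cyp3a44, Cyp3a16 and Cyp3a11, of drug metabolism, and Elovl3, an elongase of very long fatty acids. Elovl3 stood at 5.21, 5.55 and 5.72 in chow 1 to chow 3 and 3.08, 3.71 and 3.67 in HFD 1 to HFD 3. It fell by 2.01 ± 0.22 (SE; adjusted p = 0.00802), a 4.02-fold drop. Csad, the enzyme that commits cysteine to taurine synthesis, stood at 5.61, 5.73 and 6.02 in chow 1 to chow 3 and 4.07, 4.10 and 3.72 in HFD 1 to HFD 3. It fell by 1.83 ± 0.16 (SE; adjusted p = 0.00507). The lowest chow value lay well above the highest HFD value in both genes. Meg3, Elovl3 and Csad kept their calls in each of the 6 fits that left out 1 array. Srgap3, Adgrf1 and Crhr2 did too, but with no HFD array well above background this is no support for their falls. Foxo4 lost its call when any 1 of chow 1, chow 2, chow 3, HFD 1 and HFD 3 was left out (adjusted p up to 0.111). Foxo4 also missed the threshold with slide as a random block. It missed the threshold under 1 or more of normexp background correction and the authors' deposited values.

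**Figure D2:**
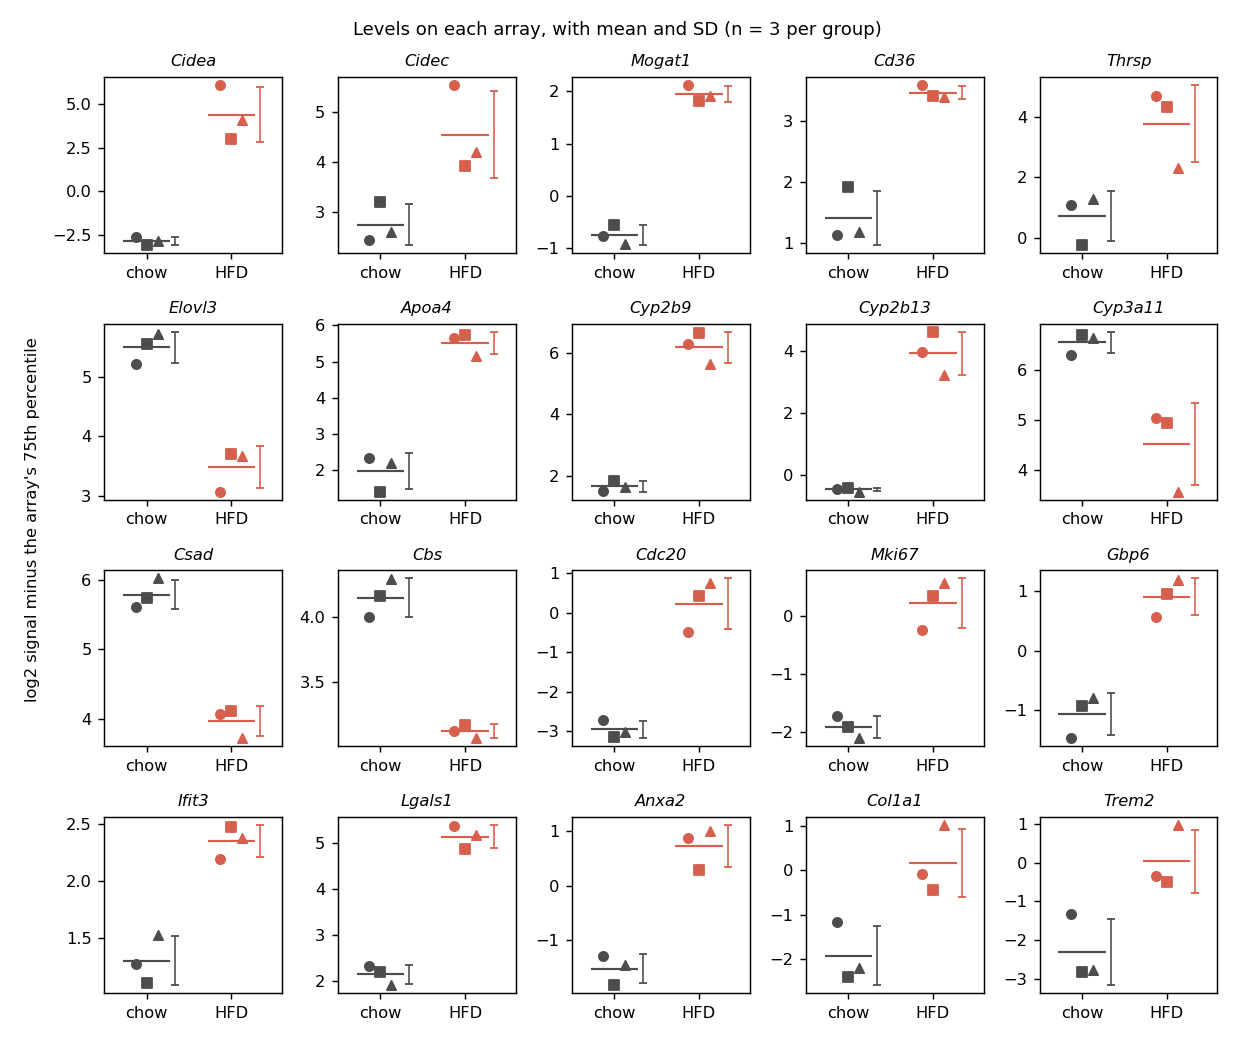
Relative level (log2) on each array for 20 genes described in the text; circles, squares and triangles are replicates 1, 2 and 3 of chow (grey) and HFD (red), lines are means and bars are SD (n = 3). The groups do not overlap in any panel, as in every called gene. HFD 3 is the highest array for Col1a1 and Trem2 and the lowest for Cyp3a11 (3.57).

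Of 18 tested lipid droplet genes 4 rose and 0 fell (22.2% higher and 0% lower, against 4.42% and 7.47% of all genes), with a median difference of 0.13 beside -0.04 over all genes. Cidec, a relative of Cidea found on the large droplets of fat cells, stood at 2.43, 3.20 and 2.60 in chow 1 to chow 3 and 5.54, 3.91 and 4.19 in HFD 1 to HFD 3. It rose by 1.80 ± 0.45 (SE; adjusted p = 0.0498), with HFD 1 again the highest. Fitm1, which partitions new triglyceride into droplets, stood at 1.46, 1.65 and 1.58 in chow 1 to chow 3 and 3.04, 2.81 and 2.5 in HFD 1 to HFD 3. It rose by 1.22 ± 0.16 (SE; adjusted p = 0.0127). Bscl2, which codes for seipin, the protein of nascent droplets, rose by 0.53 ± 0.11 (SE; adjusted p = 0.0361), although its probes ranged from -0.34 to 0.53. Plin2, the main droplet coat protein of hepatocytes, was bright in every liver, at 8.88, 9.30 and 9.28 in chow 1 to chow 3 and 8.67, 8.46 and 8.82 in HFD 1 to HFD 3. It did not pass (-0.50 ± 0.16, adjusted p = 0.0927). Pparg, the nuclear receptor that drives fat cell genes, stood at 1.73, 1.45 and 1.18 in chow 1 to chow 3 and 2.47, 1.80 and 1.89 in HFD 1 to HFD 3. It did not pass either (0.59 ± 0.23, adjusted p = 0.13).

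Cidea and Cidec are also fat cell markers. Of 11 adipocyte markers 6 were tested and 2 rose, these same 2 (33.3% of those tested, against 4.42% of all genes). The others, Fabp4 (1.25 ± 0.43, adjusted p = 0.104), Cfd (4.44 ± 1.62, adjusted p = 0.118), Car3 (0.31 ± 0.31, adjusted p = 0.532) and Lipe (0.02 ± 0.15, adjusted p = 0.952), did not pass. Adipoq, Lep, Plin1, Retn and Adrb3, which define fat cells, were not well above background on 3 of the 6 arrays. The summed level of the 6 tested markers was 223 to 284 in chow and 247 to 553 in HFD, in units of the array's 75th percentile. The part of fat cell RNA in the droplet genes was not tested.

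Genes of both routes to triglyceride were among the calls. Of 13 genes 1 rose and 2 fell (7.69% higher and 15.4% lower, against 4.42% and 7.47% of all genes). Mogat1, which makes diacylglycerol from monoacylglycerol, stood at -0.77, -0.56 and -0.93 in chow 1 to chow 3 and 2.12, 1.82 and 1.92 in HFD 1 to HFD 3. It rose by 2.70 ± 0.14 (SE; adjusted p = 0.00227), a 6.52-fold rise. Gpat4 and Gpam, which start the main glycerol phosphate route, fell by 0.63 ± 0.14 (adjusted p = 0.0414) and 0.53 ± 0.13 (adjusted p = 0.0479). Of 20 fatty acid uptake and binding genes 2 rose and 0 fell (10% higher and 0% lower). Cd36, the fatty acid translocase, stood at 1.13, 1.92 and 1.17 in chow 1 to chow 3 and 3.59, 3.41 and 3.40 in HFD 1 to HFD 3. It rose by 2.06 ± 0.23 (SE; adjusted p = 0.00802), a 4.18-fold rise. Vldlr, the receptor for very low density lipoprotein, rose by 1.03 ± 0.24 (SE; adjusted p = 0.0442).

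Genes of fatty acid synthesis did not move as a block. Of 23 lipogenesis and desaturation genes 3 rose and 1 fell, with a median of 0.16. The shares were 13% higher and 4.35% lower, against 4.42% and 7.47% of all genes. Thrsp, a lipogenic regulator, stood at 1.07, -0.24 and 1.29 in chow 1 to chow 3 and 4.69, 4.33 and 2.32 in HFD 1 to HFD 3. It rose by 3.07 ± 0.70 (SE; adjusted p = 0.0422); HFD 3 was the lowest of the HFD arrays, and the rise was 3.81 without it. Fads2, the delta-6 desaturase, rose by 0.95 ± 0.21 (SE; adjusted p = 0.0399), and Elovl1, an elongase of saturated very long chains, rose by 0.63 ± 0.14 (SE; adjusted p = 0.0393). Elovl3, described above, was the fall. Scd1, the stearoyl-CoA desaturase, stood at 6.04, 6.12 and 6.97 in chow 1 to chow 3 and 7.90, 7.59 and 7.20 in HFD 1 to HFD 3. It narrowly missed the threshold (1.19 ± 0.30, adjusted p = 0.051). Fasn, the fatty acid synthase (-0.16 ± 0.23, adjusted p = 0.663), and Srebf1, the sterol-regulatory factor that drives lipogenic genes (0.16 ± 0.32, adjusted p = 0.762), did not pass. Among 29 phospholipid and sphingolipid genes 2 rose (6.9%, near the 4.42% of all genes) and 0 fell. Smpd3, a neutral sphingomyelinase, stood at -1.58, -2.91 and -3.89 in chow 1 to chow 3 and -0.20, -0.56 and 0.94 in HFD 1 to HFD 3. Asah2, a neutral ceramidase, was the other rise (0.75 ± 0.11, adjusted p = 0.0175).

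Mogat1, Cd36 and Elovl3 kept their calls in each of the 6 fits that left out 1 array. Fitm1, Asah2, Cidec, Bscl2, Gpat4, Gpam, Vldlr, Thrsp, Fads2 and Elovl1 each lost the call without 1 or more of chow 1, chow 2, chow 3, HFD 1, HFD 2 and HFD 3 (adjusted p up to 0.135). Cidec, Gpat4, Gpam, Vldlr, Thrsp and Fads2 also missed the threshold with slide as a random block. Cidec, Bscl2, Gpat4, Gpam, Vldlr and Elovl1 missed the threshold under 1 or more of the authors' deposited values, the filter over 9 arrays, the mean of a gene's probes, all 9 arrays in the fit, normexp background correction, quantile normalization and no filter on dim probes. The count of lipid droplet genes called was 2, 1 and 1 without chow 1, chow 2 and chow 3, and 3, 2 and 2 without HFD 1, HFD 2 and HFD 3. The count of lipogenesis genes called higher was 1, 0 and 0 without chow 1, chow 2 and chow 3, and 0, 0 and 2 without HFD 1, HFD 2 and HFD 3.

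Of 24 lipoprotein genes 2 rose, Apoa4 and Apoc2, and 1 fell, shares near the background (8.33% higher and 4.17% lower, against 4.42% and 7.47% of all genes), with a median of -0.07. Apoc2, which activates lipoprotein lipase, stood at 7.5, 7.65 and 7.69 in chow 1 to chow 3 and 8.41, 8.44 and 8.46 in HFD 1 to HFD 3. It rose by 0.83 ± 0.10 (SE; adjusted p = 0.0104). Angptl4, an inhibitor of lipoprotein lipase, stood at 7.64, 7.98 and 7.91 in chow 1 to chow 3 and 7.30, 7.0 and 6.89 in HFD 1 to HFD 3. It fell by 0.78 ± 0.16 (SE; adjusted p = 0.031). In fatty acid oxidation and ketogenesis 3 of 42 genes rose and 4 fell, with a median of -0.06; these shares of 7.14% and 9.52% lay near the 4.42% and 7.47% of all genes. Ehhadh, the bifunctional enzyme of peroxisomal oxidation, stood at 6.22, 7.12 and 6.53 in chow 1 to chow 3 and 5.19, 5.33 and 4.80 in HFD 1 to HFD 3. It fell by 1.52 ± 0.26 (SE; adjusted p = 0.0224). Acot1, a cytosolic thioesterase, fell by 1.18 ± 0.27 (SE; adjusted p = 0.0432), Crat, the carnitine acetyltransferase, fell by 0.55 ± 0.12 (SE; adjusted p = 0.0367), and Fgf21, a hepatic hormone of fasting, stood at 1.61, 2.16 and 2.27 in chow 1 to chow 3 and 1.27, 0.78 and 1.09 in HFD 1 to HFD 3. It fell by 0.96 ± 0.22 (SE; adjusted p = 0.0401). Ucp2, a mitochondrial carrier, rose by 1.43 ± 0.28 (SE; adjusted p = 0.0284), Vnn1, a pantetheinase, rose by 1.07 ± 0.21 (SE; adjusted p = 0.03), and Hadh, a dehydrogenase of mitochondrial oxidation, rose by 0.58 ± 0.14 (SE; adjusted p = 0.0472). Cyp4a14, an omega-hydroxylase and PPAR alpha target, stood at 9.52, 9.80 and 9.32 in chow 1 to chow 3 and 9.06, 9.12 and 8.35 in HFD 1 to HFD 3. It did not pass (-0.71 ± 0.24, adjusted p = 0.103).

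Calls among sterol genes lay near the background. Of 24 cholesterol synthesis genes 0 rose and 1 fell (0% higher and 4.17% lower, against 4.42% and 7.47% of all genes), the late-pathway enzyme Hsd17b7, at 4.97, 4.62 and 5.07 in chow 1 to chow 3 and 3.91, 3.93 and 3.98 in HFD 1 to HFD 3, which fell by 0.95 ± 0.14 (SE; adjusted p = 0.0171). Of 25 bile acid genes 0 rose and 2 fell (8%). Cyp7b1, the oxysterol hydroxylase of the acidic bile acid pathway, fell by 0.90 ± 0.19 (SE; adjusted p = 0.0363). Slc51b, a subunit of the basolateral bile acid exporter, was at least 1.47-fold lower (adjusted p = 0.0425), a bound because no HFD array was well above background. That adjusted p is therefore no support for a fall. Cyp7a1, the rate-limiting enzyme of bile acid synthesis, varied within groups as much as between them, at 2.19, 1.42 and 2.63 in chow 1 to chow 3 and 1.65, 2.90 and 1.28 in HFD 1 to HFD 3 (-0.14 ± 0.49, adjusted p = 0.871). Apoa4 and Apoc2 kept their calls in each of the 6 fits that left out 1 array. Angptl4, Ehhadh, Acot1, Crat, Fgf21, Ucp2, Vnn1, Hadh, Hsd17b7, Cyp7b1 and Slc51b each lost the call without 1 or more of chow 1, chow 2, chow 3, HFD 1, HFD 2 and HFD 3 (adjusted p up to 0.132). Ehhadh, Acot1, Crat, Fgf21, Ucp2, Cyp7b1 and Slc51b also missed the threshold with slide as a random block. Fgf21 and Slc51b missed the threshold under 1 or more of all 9 arrays in the fit, normexp background correction and the authors' deposited values.

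Called members of the Cyp2b and Cyp3a families, P450 enzymes that oxidise drugs and steroids, moved in opposite directions. Of 10 tested genes the 3 Cyp2b members with a call rose, 4 Cyp3a members fell and 3 genes were not called. The shares were 30% higher and 40% lower, against 4.42% and 7.47% of all genes. Cyp2b9, expressed mainly in female mouse liver, stood at 1.5, 1.84 and 1.65 in chow 1 to chow 3 and 6.27, 6.63 and 5.63 in HFD 1 to HFD 3. It rose by 4.51 ± 0.26 (SE; adjusted p = 0.00227), a 22.8-fold rise. Cyp2b13, also female-biased, stood at -0.46, -0.42 and -0.54 in chow 1 to chow 3 and 3.96, 4.60 and 3.21 in HFD 1 to HFD 3. It rose by 4.40 ± 0.33 (SE; adjusted p = 0.00372), a 21.1-fold rise. Cyp2b10, the classic target of the receptor CAR, stood at -1.91, -2.24 and -1.88 in chow 1 to chow 3 and 1.02, 2.44 and 0.14 in HFD 1 to HFD 3. It rose by 3.21 ± 0.54 (SE; adjusted p = 0.0221), with HFD 3 the lowest HFD array and a rise of 2.59 without HFD 2. Cyp3a11, the main Cyp3a enzyme of male liver, stood at 6.30, 6.70 and 6.64 in chow 1 to chow 3 and 5.04, 4.95 and 3.57 in HFD 1 to HFD 3. It fell by 2.03 ± 0.40 (SE; adjusted p = 0.0302). Cyp3a16 fell by 2.20 ± 0.40 (SE; adjusted p = 0.0252), Cyp3a44 fell by 2.23 ± 0.41 (SE; adjusted p = 0.0265) and Cyp3a41a fell by 1.87 ± 0.37 (SE; adjusted p = 0.0298). HFD 3 was the lowest array for all 4 Cyp3a genes, at 2.98 for Cyp3a16, 3.40 for Cyp3a44 and 6.45 for Cyp3a41a.

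These genes have near-identical copies, and a probe may read several of them, so the value of each copy is uncertain. A probe for each of 3 of them is given in lower case to show what was hybridised. Their mm9 positions are chr7:26983484-26983543 for Cyp2b9, chr7:26873757-26880713 for Cyp2b13 and chr5:146672058-146673925 for Cyp3a11, and the last 2 stretches are longer than their probes.
Cyp2b9: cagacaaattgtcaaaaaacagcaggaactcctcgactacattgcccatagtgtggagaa
Cyp2b13: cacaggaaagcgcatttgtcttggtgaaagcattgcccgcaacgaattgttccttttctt
Cyp3a11: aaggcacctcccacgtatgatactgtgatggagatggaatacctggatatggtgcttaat
The Cyp2b9 probe shown gave a difference of 4.23, against 4.51 for the brighter probe, and the 2 probes of Cyp2b13 gave 4.40 and 4.70.

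Among 19 tested genes known as female-biased in mouse liver 8 rose and 3 fell, and among 26 male-biased genes 0 rose and 5 fell, with medians of 0.40 and -0.32. The female-biased shares were 42.1% higher and 15.8% lower, against 4.42% and 7.47% of all genes, and the male-biased shares 0% and 19.2%. Beside the Cyp2b genes, the rises in the female-biased list included Sult3a1, a sulfotransferase, at -3.92, -4.45 and -4.50 in chow 1 to chow 3 and -2.0, -2.26 and -2.36 in HFD 1 to HFD 3 (2.08 ± 0.19, adjusted p = 0.00552), Hao2, a peroxisomal hydroxy acid oxidase, at least 4.06-fold higher (adjusted p = 0.0211), Abcd2, a peroxisomal transporter (1.18 ± 0.20, adjusted p = 0.0229), Rtn4, a reticulon (1.12 ± 0.18, adjusted p = 0.021), and Tox, a nuclear factor (0.83 ± 0.17, adjusted p = 0.0346). Sult3a1 was well above background on only 1 of the 3 chow arrays, so its difference rests partly on dim chow values. Hao2 was well above background on no chow array, so its adjusted p is no support for a rise. The 2 dimmer probes of Tox gave 0.47 and 0.024. The falls in the female-biased list were Cyp3a16, Cyp3a44 and Cyp3a41a. The falls in the male-biased list were Elovl3, Gstp1, a glutathione transferase (9.57, 9.81 and 9.77 in chow 1 to chow 3 and 8.72, 8.69 and 8.33 in HFD 1 to HFD 3; -1.14 ± 0.14, adjusted p = 0.0119), Susd4, a complement regulator (-1.04 ± 0.20, adjusted p = 0.0285), Cyp7b1, and C8b, a complement component (-0.71 ± 0.17, adjusted p = 0.0468). The count of female-biased genes called higher was 3, 3 and 3 without chow 1, chow 2 and chow 3, and 6, 4 and 8 without HFD 1, HFD 2 and HFD 3. The count of male-biased genes called lower was 2, 1 and 1 without chow 1, chow 2 and chow 3, and 3, 4 and 6 without HFD 1, HFD 2 and HFD 3.

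Other P450 genes were called at the background rate, with 2 of 39 higher and 3 lower (5.13% higher and 7.69% lower, against 4.42% and 7.47% of all genes), and 5 of 55 conjugation genes rose (9.09%) and 3 fell. Cyp2j9 (-1.35 ± 0.19, adjusted p = 0.0144) and Cyp2c23 (-1.12 ± 0.17, adjusted p = 0.0168), enzymes that can oxidise arachidonic acid, fell. Sult1e1, the estrogen sulfotransferase, stood at -2.72, -3.08 and -3.06 in chow 1 to chow 3 and -1.72, -1.52 and -1.58 in HFD 1 to HFD 3. It rose by 1.35 ± 0.14 (SE; adjusted p = 0.00708). Cyp2b9, Cyp2b13, Sult3a1 and Sult1e1 kept their calls in each of the 6 fits that left out 1 array. Cyp2b10, Cyp3a11, Cyp3a16, Cyp3a44, Cyp3a41a, Hao2, Abcd2, Rtn4, Tox, Gstp1, Susd4, C8b, Cyp2j9 and Cyp2c23 each lost the call without 1 or more of chow 1, chow 2, chow 3, HFD 1, HFD 2 and HFD 3 (adjusted p up to 0.132). Cyp3a11, Hao2, Abcd2 and C8b also missed the threshold with slide as a random block. Cyp2b10 and C8b missed the threshold under 1 or more of the mean of a gene's probes and the filter over 9 arrays.

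Several enzymes of amino acid breakdown and sulfur metabolism fell. Of 37 amino acid catabolism genes 7 fell and 1 rose (2.7% higher and 18.9% lower, against 4.42% and 7.47% of all genes), while 19 differences were positive and 18 negative. Of 33 urea and methionine cycle genes 3 fell and 0 rose, near the background (9.09% lower), with a median of -0.14. Sdsl, a serine dehydratase-like enzyme, stood at 2.63, 2.64 and 2.45 in chow 1 to chow 3 and 1.31, 1.30 and 1.40 in HFD 1 to HFD 3. It fell by 1.24 ± 0.11 (SE; adjusted p = 0.00475). Cbs, the first enzyme of transsulfuration, which turns homocysteine toward cysteine, stood at 4.0, 4.15 and 4.29 in chow 1 to chow 3 and 3.13, 3.18 and 3.07 in HFD 1 to HFD 3. It fell by 1.02 ± 0.11 (SE; adjusted p = 0.00865). Cth, the next enzyme of that route, fell by 0.85 ± 0.18 (SE; adjusted p = 0.0346), and Csad, which takes cysteine on to taurine, fell 3.55-fold, as given above. Asl, an enzyme of the urea cycle, stood at 6.23, 5.93 and 5.95 in chow 1 to chow 3 and 5.05, 5.18 and 4.59 in HFD 1 to HFD 3. It fell by 1.09 ± 0.18 (SE; adjusted p = 0.0221). Agxt, which detoxifies glyoxylate, fell by 0.68 ± 0.11 (SE; adjusted p = 0.0205). Hal and Amdhd1, of histidine breakdown, fell by 0.67 ± 0.12 (adjusted p = 0.0227) and 0.55 ± 0.14 (adjusted p = 0.0491). Gls2, the liver glutaminase, fell by 0.70 ± 0.12 (SE; adjusted p = 0.0237), and Tat, the tyrosine aminotransferase, fell by 0.73 ± 0.18 (SE; adjusted p = 0.0461). Ido2, of tryptophan breakdown, was the rise (0.72 ± 0.12, adjusted p = 0.0221).

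Asl, Hal and Gls2 also mark periportal hepatocytes, the cells around the portal vein. Of 12 periportal markers 3 fell and 1 rose (Aldh1b1, 1.06 ± 0.20), and 10 differences were negative, with a median of -0.35. The shares were 25% lower and 8.33% higher, against 7.47% and 4.42% of all genes. Pericentral markers, of cells around the central vein, had 1 rise, Rhbg, an ammonium transporter (0.88 ± 0.21, adjusted p = 0.0454), and 0 falls of 13 (7.69% higher), with a median of 0.03. The summed periportal level was 2144 to 2294 in chow and 1545 to 1937 in HFD, and the pericentral one was 1071 to 1161 in chow and 1013 to 1358 in HFD. Whether the share of these cells moved with the diet was not tested. Sdsl, Cbs and Csad kept their calls in each of the 6 fits that left out 1 array. Asl, Cth, Agxt, Hal, Amdhd1, Gls2, Tat, Ido2, Aldh1b1 and Rhbg each lost the call without 1 or more of chow 1, chow 2, chow 3, HFD 1, HFD 2 and HFD 3 (adjusted p up to 0.131). Cth, Hal, Tat, Ido2 and Rhbg also missed the threshold with slide as a random block. Tat and Rhbg missed the threshold under 1 or more of quantile normalization, the authors' deposited values and the filter over 9 arrays. The count of amino acid catabolism genes called lower was 2, 2 and 2 without chow 1, chow 2 and chow 3, and 4, 4 and 5 without HFD 1, HFD 2 and HFD 3.

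Genes of mitosis were the list with the largest share called higher. Of 35 tested members of 53 on the array 19 rose and 0 fell, which is 54.3% against 4.42% of all genes, with a median difference of 1.15. Cdc20, which switches on the ubiquitin ligase that starts anaphase, stood at -2.70, -3.14 and -3.01 in chow 1 to chow 3 and -0.49, 0.42 and 0.74 in HFD 1 to HFD 3. It rose by 3.17 ± 0.32 (SE; adjusted p = 0.00703). Ccnb2, a mitotic cyclin, stood at -0.72, -1.05 and -1.1 in chow 1 to chow 3 and 0.71, 1.37 and 1.18 in HFD 1 to HFD 3. It rose by 2.04 ± 0.20 (SE; adjusted p = 0.00627). HFD 1 was the lowest HFD array for both, and still far above every chow array. Mki67, the nuclear marker of dividing cells, stood at -1.72, -1.91 and -2.11 in chow 1 to chow 3 and -0.25, 0.34 and 0.58 in HFD 1 to HFD 3. It rose by 2.14 ± 0.23 (SE; adjusted p = 0.00781). Prc1, of the spindle midzone (2.55 ± 0.26, adjusted p = 0.00708), Cenpe, a kinetochore motor (2.21 ± 0.24, adjusted p = 0.00781), and Ube2c, the ubiquitin-conjugating enzyme of mitotic exit (1.85 ± 0.22, adjusted p = 0.00974), rose too. Further rises were Ccna2, a cyclin of S phase and early mitosis (2.48 ± 0.29, adjusted p = 0.00977), Plk1 (2.29 ± 0.40, adjusted p = 0.0239) and Aurka (1.46 ± 0.27, adjusted p = 0.0258), both mitotic kinases, Birc5, which codes for survivin (1.90 ± 0.27, adjusted p = 0.0151), Kif20a, a kinesin (2.13 ± 0.25, adjusted p = 0.00971), and Top2a, the topoisomerase of dividing cells (1.16 ± 0.23, adjusted p = 0.0324). Of the 16 tested members without a call, 4 had negative differences. Among the members too dim to test were Cdk1, Ccnb1 and Aurkb, named after their values were seen.

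The list's score, the median over its members of the level minus the mean of the 6 arrays, was -0.42, -0.67 and -0.55 in chow 1 to chow 3 and 0.27, 0.63 and 0.72 in HFD 1 to HFD 3. All 3 HFD arrays lay above all chow arrays. The count of members called was 13, 8 and 7 without chow 1, chow 2 and chow 3, and 19, 12 and 18 without HFD 1, HFD 2 and HFD 3. Since 2 tested members were well above background in 1 group only and 18 of the 53 on the array did not pass the filter on dim probes, the count speaks for detectable members only. Of 35 DNA replication genes 4 rose and 0 fell (11.4% higher, against 4.42% of all genes). The rises were Mcm4 (0.95 ± 0.19), Mcm5 (1.07 ± 0.22), Pole (0.76 ± 0.16) and Orc6 (0.44 ± 0.11), although a dimmer probe of Mcm4 gave 0.099. Of 21 G1 regulators 3 rose and 2 fell (14.3% higher and 9.52% lower, against 4.42% and 7.47%). The rises were Ccne1 (0.85 ± 0.13, adjusted p = 0.0178), E2f1 (1.2 ± 0.20, adjusted p = 0.0212) and Cdkn1c (0.51 ± 0.10, adjusted p = 0.0279). The falls were E2f4 (-0.63 ± 0.15, adjusted p = 0.0448) and Cdkn2b, which was not well above background on any HFD array. Cdc20, Ccnb2, Mki67, Prc1, Cenpe and Ube2c kept their calls in each of the 6 fits that left out 1 array. Kif20a, Ccna2, Plk1, Aurka, Birc5, Top2a, Mcm4, Mcm5, Pole, Orc6, Ccne1, E2f1, Cdkn1c, E2f4 and Cdkn2b each lost the call without 1 or more of chow 1, chow 2, chow 3, HFD 1, HFD 2 and HFD 3 (adjusted p up to 0.131). Mcm5, Pole, Orc6, Ccne1, E2f1, E2f4 and Cdkn2b also missed the threshold with slide as a random block. Mcm4, Pole, Orc6, E2f1, E2f4 and Cdkn2b missed the threshold under 1 or more of the mean of a gene's probes, all 9 arrays in the fit, quantile normalization, the percentile taken over bright probes, the authors' deposited values, no filter on dim probes, the filter over 9 arrays and normexp background correction.

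Promoters of mitotic genes are known for CCAAT boxes and for a cell cycle genes homology region (TTTGAA), which bind NF-Y and the MuvB complexes. Windows from 250 bases before to 50 bases after the start, from RefSeq (GRCm38.p6), were searched on both strands for these letters. Stretches of 3 called members are shown because their transcripts rose together. The lines run 5′ to 3′ on the gene's strand, upstream of the start only, with both motifs in capitals (on the other strand CCAAT reads ATTGG). They are chr9:70421561-70421731, minus strand (Ccnb2), chr4:118437344-118437406, minus strand (Cdc20) and chr7:135716462-135716577, minus strand (Mki67).
Ccnb2: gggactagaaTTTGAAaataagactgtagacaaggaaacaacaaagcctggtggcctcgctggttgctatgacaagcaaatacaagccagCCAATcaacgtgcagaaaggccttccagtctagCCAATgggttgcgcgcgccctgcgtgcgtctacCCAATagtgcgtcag
Cdc20: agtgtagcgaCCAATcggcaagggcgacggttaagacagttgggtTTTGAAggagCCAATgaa
Mki67: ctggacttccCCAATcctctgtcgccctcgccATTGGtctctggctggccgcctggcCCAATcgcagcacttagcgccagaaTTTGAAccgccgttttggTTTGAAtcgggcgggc
A CCAAT match lay in 15 of 18 windows of 16 called members (83.3%) and in 10 of 14 windows of members without a call (71.4%), against 37.4% of all 32851 windows. For TTTGAA the counts were 14 and 10 (77.8% and 71.4%), against 17.9% of all windows. A match describes the letters in a window and is not a binding site.

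Interferon-stimulated genes, the antiviral program that cells start on sensing interferon, were higher as a broad list with modest folds. Of 49 tested members 24 rose and 0 fell (49% against 4.42% of all genes), 46 differences were positive, and the median was 0.77. Gbp6, a guanylate-binding protein, stood at -1.48, -0.94 and -0.81 in chow 1 to chow 3 and 0.57, 0.96 and 1.18 in HFD 1 to HFD 3. It rose by 1.98 ± 0.23 (SE; adjusted p = 0.00971). Ifit3, an RNA-binding antiviral protein, stood at 1.27, 1.11 and 1.53 in chow 1 to chow 3 and 2.19, 2.47 and 2.38 in HFD 1 to HFD 3. It rose by 1.04 ± 0.15 (SE; adjusted p = 0.0149). Zbp1, a sensor of nucleic acids, stood at -0.39, 0.31 and 0.18 in chow 1 to chow 3 and 1.45, 1.46 and 2.30 in HFD 1 to HFD 3. It rose by 1.71 ± 0.29 (SE; adjusted p = 0.0224). HFD 3 was the highest array for Gbp6 and Zbp1. Other rises were Xaf1 (1.32 ± 0.20, adjusted p = 0.0173), Ifit2 (1.38 ± 0.22, adjusted p = 0.0199), Ifi44 (1.29 ± 0.24, adjusted p = 0.0265), Ifit1 (1.09 ± 0.22, adjusted p = 0.033), Rsad2, which codes for viperin (1.0 ± 0.23, adjusted p = 0.0405), Cxcl10, a T cell chemokine (1.05 ± 0.22, adjusted p = 0.0363), and the RNA sensors Ddx58 (0.78 ± 0.16, adjusted p = 0.0349) and Ifih1 (0.69 ± 0.15, adjusted p = 0.0357). Of the factors that carry the signal, Stat2 (-0.10 ± 0.20, adjusted p = 0.768), Irf7 (0.30 ± 0.22, adjusted p = 0.386) and Irf9 (0.30 ± 0.14, adjusted p = 0.193) did not pass; these 3 were named after their values were seen.

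The score of the list was -0.45, -0.39 and -0.21 in chow 1 to chow 3 and 0.23, 0.26 and 0.66 in HFD 1 to HFD 3. Every HFD array lay above every chow array, yet most members sat close to the threshold, and the count of members called was 1, 1 and 2 without chow 1, chow 2 and chow 3, and 13, 6 and 8 without HFD 1, HFD 2 and HFD 3. In antigen presentation 3 of 22 immunoproteasome and MHC class I genes rose and 0 fell (13.6% higher, against 4.42% of all genes). H2-Q1, a class I gene with close paralogs, stood at -1.37, -1.17 and -1.22 in chow 1 to chow 3 and 1.18, 0.49 and 0.74 in HFD 1 to HFD 3. It rose by 2.06 ± 0.19 (SE; adjusted p = 0.00552). Psmb9, an immunoproteasome subunit, stood at 2.47, 2.43 and 2.59 in chow 1 to chow 3 and 3.60, 3.63 and 4.17 in HFD 1 to HFD 3. It rose by 1.31 ± 0.18 (SE; adjusted p = 0.0133), and H2-T22 rose by 0.61 ± 0.15 (SE; adjusted p = 0.0482). Of 10 class II genes 1 rose (10%, against 4.42% of all genes), Lgmn, a protease of antigen processing (0.85 ± 0.19, adjusted p = 0.0405). Gbp6 and H2-Q1 kept their calls in each of the 6 fits that left out 1 array. Ifit3, Zbp1, Xaf1, Ifit2, Ifi44, Ifit1, Rsad2, Cxcl10, Ddx58, Ifih1, Psmb9, H2-T22 and Lgmn each lost the call without 1 or more of chow 1, chow 2, chow 3, HFD 1, HFD 2 and HFD 3 (adjusted p up to 0.123). Zbp1, Cxcl10, H2-T22 and Lgmn also missed the threshold with slide as a random block. Cxcl10, H2-T22 and Lgmn missed the threshold under 1 or more of all 9 arrays in the fit, quantile normalization, the authors' deposited values, no filter on dim probes, the filter over 9 arrays and array weights.

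**Figure D3:**
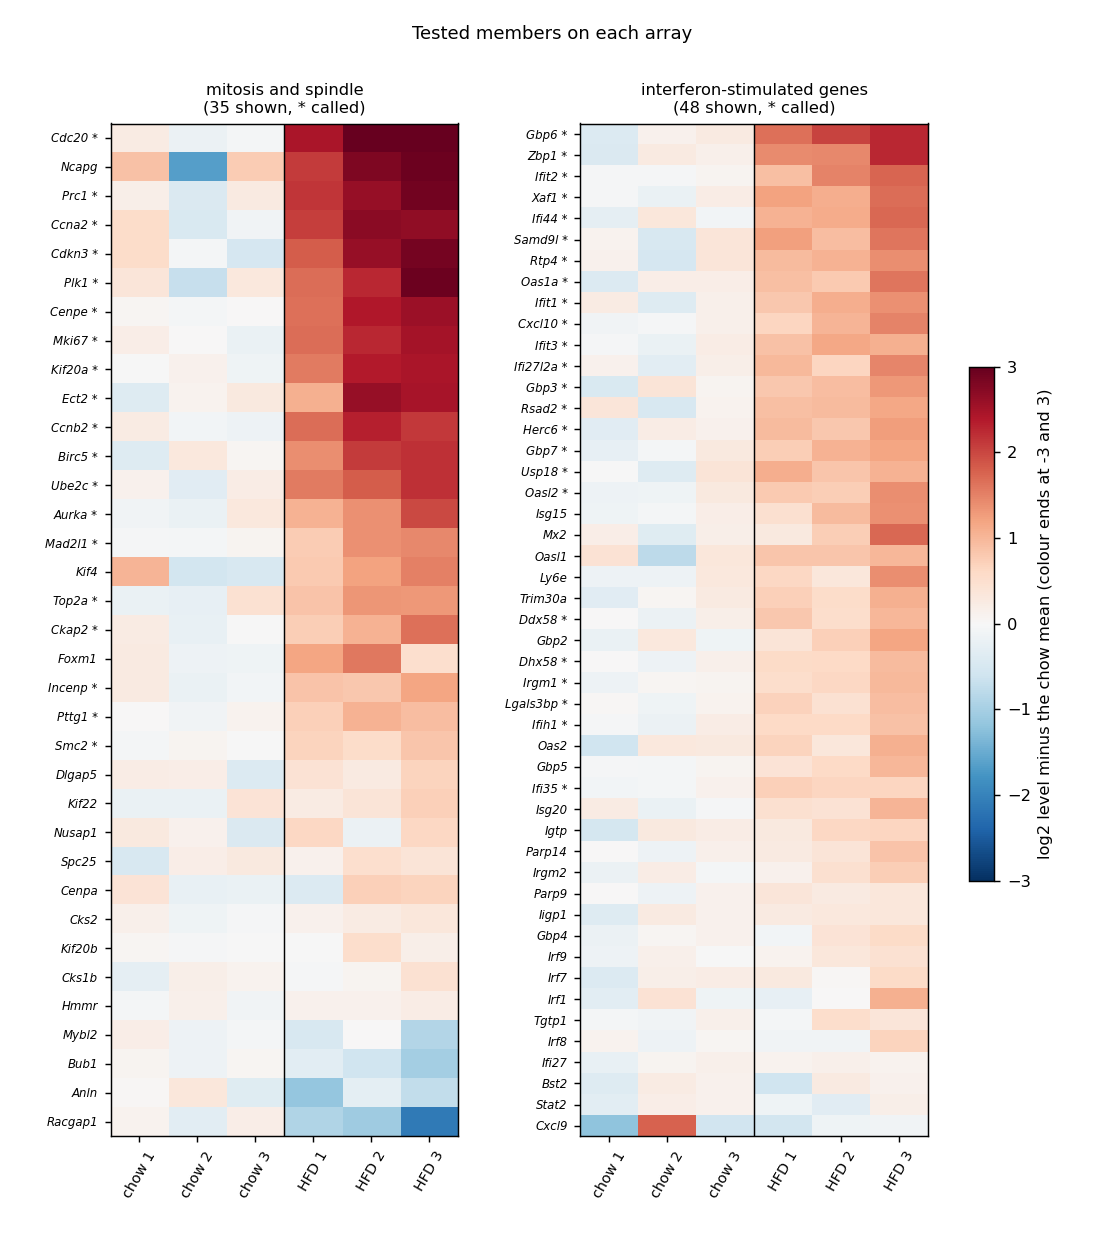
Level of tested members of the mitosis list (left) and the interferon list (right) on each array, as log2 level minus the mean of the 3 chow arrays; red is higher, blue lower, the colours end at 3 units, and a star marks a called gene. The 3 HFD columns are red for most members of both lists, with stronger colours in mitosis, where the median difference was 1.15 against 0.77.

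Factors activated by interferon recognise a response element searched here on both strands as GAAA, any 2 bases and GAAA again. Stretches upstream of 3 called members are shown with the element in capitals (TTTC, 2 bases and TTTC where it lies on the other strand), at chr19:34583348-34583441, plus strand (Ifit3), chr5:92349068-92349127, minus strand (Cxcl10) and chr12:26456538-26456597, minus strand (Rsad2), GRCm38.p6.
Ifit3: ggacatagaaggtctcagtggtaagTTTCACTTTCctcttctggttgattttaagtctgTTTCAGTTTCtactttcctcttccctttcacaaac
Cxcl10: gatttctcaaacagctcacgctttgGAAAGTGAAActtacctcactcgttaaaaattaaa
Rsad2: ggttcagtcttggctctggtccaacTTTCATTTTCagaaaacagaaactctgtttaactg
The element lay in 10 of 20 windows of 18 called members (50%) and in 10 of 22 windows of members without a call (45.5%), against 3.44% of all windows. In the 6 windows of 3 called lipid droplet genes, the direct repeat of AGGTCA with 1 base between, bound by PPAR with RXR, had 0 matches, and 0.0396% of all windows held it. The E-box CACGTG had 0 there, against 7.15%.

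Macrophage markers were mostly higher, with few calls. Of Kupffer markers 7.14% were called higher, and of monocyte and lipid-associated macrophage markers 15.4%, against 4.42% of all genes. Of 14 Kupffer cell markers, genes of the resident liver macrophage, 13 differences were positive with a median of 0.92, and 1 was called: Cd5l, a secreted macrophage protein, at 4.10, 3.63 and 4.42 in chow 1 to chow 3 and 5.44, 4.94 and 5.55 in HFD 1 to HFD 3 (1.26 ± 0.25, adjusted p = 0.0316). Adgre1, an adhesion receptor of mature macrophages, stood at 1.42, 0.67 and 2.06 in chow 1 to chow 3 and 2.65, 2.04 and 2.60 in HFD 1 to HFD 3. It did not pass (1.05 ± 0.36, adjusted p = 0.107). Of 13 monocyte and lipid-associated macrophage markers 2 rose and 0 fell, with a median of 0.86. Ly6c2, a surface protein of inflammatory monocytes, stood at 2.62, 2.71 and 2.63 in chow 1 to chow 3 and 4.35, 4.74 and 4.56 in HFD 1 to HFD 3. It rose by 1.89 ± 0.13 (SE; adjusted p = 0.00341). Trem2, a lipid-sensing receptor of macrophages in fatty liver, stood at -1.31, -2.82 and -2.75 in chow 1 to chow 3 and -0.35, -0.51 and 0.96 in HFD 1 to HFD 3. It rose by 2.33 ± 0.54 (SE; adjusted p = 0.0437), with HFD 3 the highest array. Spp1, which codes for osteopontin, was high in HFD 3 only, at 2.26, 2.18 and 2.27 in chow 1 to chow 3 and 2.52, 2.83 and 5.49 in HFD 1 to HFD 3 (1.38 ± 0.75, adjusted p = 0.251). Of 29 chemokine genes 3 rose (10.3%), among them Cxcl10 and Ccl4 (1.59 ± 0.38, adjusted p = 0.0468). Ccl2, which draws monocytes, stood at -0.85, -1.68 and -1.71 in chow 1 to chow 3 and -0.15, -0.03 and 1.56 in HFD 1 to HFD 3. It did not pass (1.87 ± 0.50, adjusted p = 0.0582).

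Chow 2 and HFD 3 stood apart in cell markers. The Kupffer score was -0.24, -1.07 and 0.12 in chow 1 to chow 3 and 0.63, 0.27 and 0.48 in HFD 1 to HFD 3, with chow 2 far below the other chow arrays, which lay closer to the HFD arrays. Chow 2 was also the lowest array for stellate (-0.68), sinusoidal endothelial (-0.70) and red blood cell markers (-0.78). The neutrophil score was -0.13, -1.14 and -0.78 in chow 1 to chow 3 and 0.24, -0.40 and 2.86 in HFD 1 to HFD 3, so HFD 3 alone was high, and HFD 3 was also the highest for monocyte markers (1.15) and for acute phase genes (1.15). Without HFD 3 the median differences were 0.77 for neutrophil and 0.39 for monocyte markers, against 1.45 and 0.86 with it. Without chow 2 the Kupffer median was 0.52 against 0.92. Summed levels of tested markers were 70 to 99.3 in chow and 110.1 to 152 in HFD for 14 Kupffer markers, 22.1 to 24.9 in chow and 40.4 to 96.2 in HFD for 13 monocyte markers and 3.92 to 7.23 in chow and 6.1 to 131 in HFD for 6 neutrophil markers. The defining neutrophil genes Elane, Ltf, Camp, Ngp and Mmp8 were not well above background on 3 arrays, nor were Gpnmb and Mmp12 of lipid-associated macrophages. T, B and NK cell markers had 0 rises and 1 fall of 16 (6.25%, near the 7.47% of all genes), with a median of -0.12. The fall was that of Cd4, of helper T cells, at least 1.37-fold, a bound because no HFD array was well above background. Its adjusted p of 0.0315 is therefore no support for a fall.

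**Figure D4:**
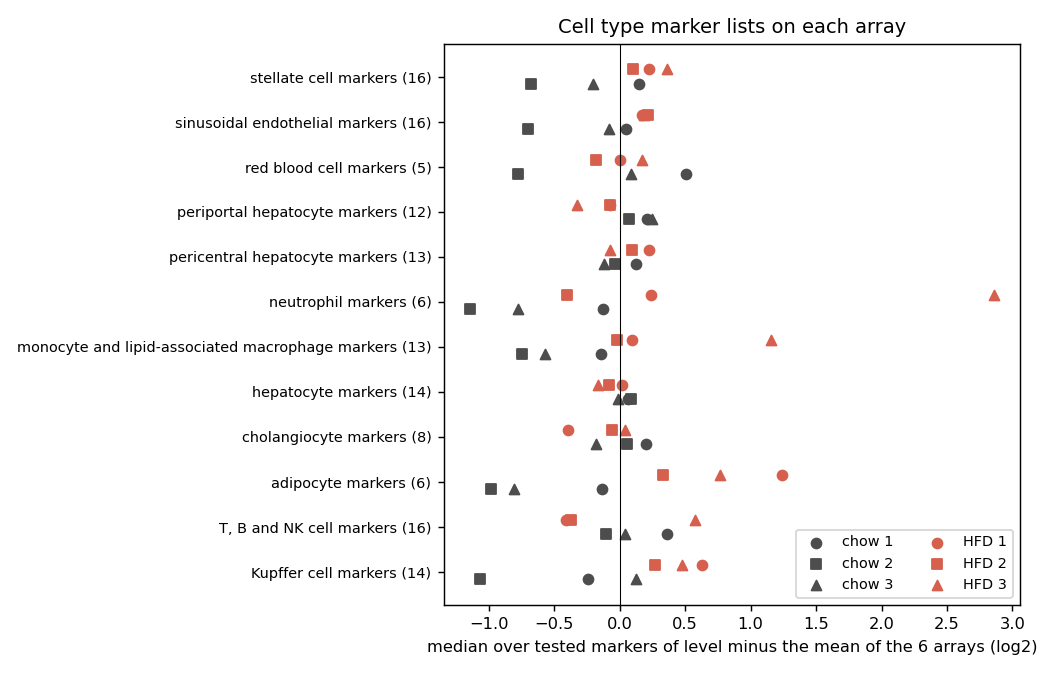
Median over the tested markers of each cell type of the level minus the mean of the 6 arrays (log2), 1 point per array; grey is chow, red is HFD, symbols are replicates, and the number of tested markers is in brackets. Chow 2 lies apart on the left for Kupffer, stellate and endothelial markers, HFD 3 lies at 2.86 for neutrophil markers, and hepatocyte markers hardly spread.

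Matrix genes are made chiefly by stellate cells. Of 35 tested collagen and matrix genes 6 rose and 0 fell (17.1% higher and 0% lower, against 4.42% and 7.47% of all genes), with a median of 0.70. Col1a1, the main chain of fibrillar collagen, stood at -1.17, -2.40 and -2.19 in chow 1 to chow 3 and -0.08, -0.44 and 1.01 in HFD 1 to HFD 3. It rose by 2.08 ± 0.47 (SE; adjusted p = 0.0404). Col3a1 stood at 0.89, -0.12 and 0.43 in chow 1 to chow 3 and 2.02, 1.81 and 2.74 in HFD 1 to HFD 3. It rose by 1.79 ± 0.33 (SE; adjusted p = 0.0268). In both, HFD 3 was the highest array and chow 2 the lowest. Adamts2, which trims procollagen (1.24 ± 0.27, adjusted p = 0.0389), Col5a2 (1.16 ± 0.27, adjusted p = 0.0428), Col6a3 (1.2 ± 0.29, adjusted p = 0.0475) and Col14a1 (1.1 ± 0.25, adjusted p = 0.0405) also rose, although a dimmer probe of Col14a1 gave -0.08. The count of matrix genes called higher was 2, 0 and 0 without chow 1, chow 2 and chow 3, and 1, 1 and 1 without HFD 1, HFD 2 and HFD 3. Beside them, 2 of 16 stellate markers rose, Col1a1 and Col3a1 themselves (12.5%, against 4.42% of all genes), and 14 differences were positive with a median of 0.40. The stellate score was 0.14, -0.68 and -0.20 in chow 1 to chow 3 and 0.22, 0.10 and 0.36 in HFD 1 to HFD 3, and the summed level 136 to 224 in chow and 214 to 242 in HFD. All 16 endothelial markers had positive differences (median 0.34) and 0 were called in limma, with a summed level of 51.2 to 85 in chow and 94.8 to 108 in HFD. The part of these cells in the matrix genes was not tested. Ly6c2 kept its call in each of the 6 fits that left out 1 array. Cd5l, Trem2, Ccl4, Cd4, Col1a1, Col3a1, Adamts2, Col5a2, Col6a3 and Col14a1 each lost the call without 1 or more of chow 1, chow 2, chow 3, HFD 1, HFD 2 and HFD 3 (adjusted p up to 0.139). Cd5l, Trem2, Ccl4, Cd4, Col1a1, Col5a2, Col6a3 and Col14a1 also missed the threshold with slide as a random block. Cd5l, Trem2, Ccl4, Cd4, Adamts2, Col5a2, Col6a3 and Col14a1 missed the threshold under 1 or more of all 9 arrays in the fit, the mean of a gene's probes, the percentile taken over bright probes, the filter over 9 arrays, normexp background correction, quantile normalization and the authors' deposited values.

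Annexins and S100 proteins, which bind calcium and membranes, were called higher more often than all genes (27.3% against 4.42%): 6 of 22 rose and 1 fell, with a median of 0.64. The list's score was -0.10, -0.46 and -0.37 in chow 1 to chow 3 and 0.25, 0.17 and 0.48 in HFD 1 to HFD 3. Chow 2 was the lowest and HFD 3 the highest array, as for monocyte, neutrophil and stellate markers, whose part in these rises was not tested. Anxa2 stood at -1.30, -1.83 and -1.46 in chow 1 to chow 3 and 0.89, 0.29 and 1.01 in HFD 1 to HFD 3. It rose by 2.26 ± 0.23 (SE; adjusted p = 0.00721), and its partner S100a10 rose by 0.70 ± 0.11 (SE; adjusted p = 0.02). Anxa5 stood at 3.89, 3.85 and 3.86 in chow 1 to chow 3 and 4.88, 4.67 and 4.76 in HFD 1 to HFD 3. It rose by 0.90 ± 0.10 (SE; adjusted p = 0.00875). Anxa8 stood at -1.85, -3.93 and -3.31 in chow 1 to chow 3 and 0.02, -0.23 and -0.23 in HFD 1 to HFD 3. S100a11 rose by 1.51 ± 0.36 (SE; adjusted p = 0.0455), and S100g, a calcium-binding protein, was at least 2.35-fold higher (adjusted p = 0.0253). S100a3, the fall, was not well above background on any HFD array, and S100g was not on any chow array. Their calls are therefore no support for a difference. A list of 8 galectin and galectin-binding genes had 2 rises and 2 falls (25% each, against 4.42% and 7.47% of all genes). Lgals1 and Lgals3bp, a galectin-binding protein (0.70 ± 0.15, adjusted p = 0.0369), rose. Lgals4 (-1.22 ± 0.17, adjusted p = 0.0151) and Lgals6 (-1.35 ± 0.17, adjusted p = 0.0123) fell. The last 2 are close paralogs, and the Lgals6 probe has no mm9 position. Their probes may not tell them apart, so they may not be separate falls. Of 40 lysosomal genes 5 rose and 0 fell (12.5% higher and 0% lower, against 4.42% and 7.47% of all genes). Among them were Hexa, of the lysosomal hexosaminidase (0.63 ± 0.13, adjusted p = 0.0324), Ctsd, the aspartic protease cathepsin D (0.59 ± 0.11, adjusted p = 0.0268), Psap, which codes for the saposins (0.67 ± 0.13, adjusted p = 0.0282), and Ppt1, a thioesterase (0.77 ± 0.13, adjusted p = 0.0221). Of 36 tubulin, actin and actin-binding genes 3 rose and 3 fell (8.33% each, against 4.42% and 7.47% of all genes). Among the tubulins, Tuba4a, Tuba8 and Tubb3 had negative differences (-0.69, -1.45 and -0.58). Tpm2, a tropomyosin of contractile cells, stood at 0.08, 0.35 and -0.66 in chow 1 to chow 3 and 2.57, 2.42 and 2.03 in HFD 1 to HFD 3. It rose by 2.41 ± 0.28 (SE; adjusted p = 0.00971), and Stmn1, a tubulin-binding protein of dividing cells, rose by 1.21 ± 0.16 (SE; adjusted p = 0.0125). Lgals1, Anxa2, Anxa5 and Tpm2 kept their calls in each of the 6 fits that left out 1 array. S100a10, Anxa8, S100a11, S100g, S100a3, Lgals3bp, Lgals4, Lgals6, Hexa, Ctsd, Psap, Ppt1 and Stmn1 each lost the call without 1 or more of chow 1, chow 2, chow 3, HFD 1, HFD 2 and HFD 3 (adjusted p up to 0.136). Lgals3bp and Psap also missed the threshold with slide as a random block. S100g, S100a3, Lgals3bp and Psap missed the threshold under 1 or more of normexp background correction, quantile normalization, the authors' deposited values and all 9 arrays in the fit.

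The next list joined targets of p53, the factor that responds to DNA damage, with Gadd45 genes. Of its 25 genes 5 rose and 1 fell (20% higher and 4% lower, against 4.42% and 7.47% of all genes). Ccng1, a cyclin induced by p53, stood at 0.90, 0.97 and 1.15 in chow 1 to chow 3 and 2.07, 2.0 and 2.12 in HFD 1 to HFD 3. It rose by 1.06 ± 0.11 (SE; adjusted p = 0.00737). Phlda3, an inhibitor of Akt, rose by 1.51 ± 0.27 (SE; adjusted p = 0.0242), and Bax (0.78 ± 0.15, adjusted p = 0.0294), Aen (0.68 ± 0.13, adjusted p = 0.0294) and Zmat3 (0.59 ± 0.11, adjusted p = 0.029) rose by less. Gadd45b, a stress sensor, stood at 1.70, 2.14 and 1.0 in chow 1 to chow 3 and -0.36, -0.08 and -0.10 in HFD 1 to HFD 3. It fell by 1.79 ± 0.29 (adjusted p = 0.02). Of 34 hepatokine and TGF beta family genes 1 rose and 3 fell (2.94% higher and 8.82% lower, near the 4.42% and 7.47% of all genes). The rise was Lect2, a secreted liver protein, at 5.13, 5.03 and 5.09 in chow 1 to chow 3 and 6.33, 6.13 and 5.98 in HFD 1 to HFD 3 (1.06 ± 0.12, adjusted p = 0.00921). The falls were Angptl4, Fgf21 and Inhba, the activin A subunit, at 0.73, 0.87 and 0.87 in chow 1 to chow 3 and -0.36, -0.11 and -0.07 in HFD 1 to HFD 3 (-1.0 ± 0.12, adjusted p = 0.01). Of 31 insulin and growth hormone pathway genes 1 fell (3.23%, below the 7.47% of all genes) and 0 rose. Irs1, an adaptor of the insulin receptor, stood at 2.71, 2.55 and 2.19 in chow 1 to chow 3 and 1.38, 1.80 and 1.48 in HFD 1 to HFD 3. It fell by 0.93 ± 0.18 (SE; adjusted p = 0.0297). Of 37 glucose genes 1 rose (2.7%, below the 4.42% of all genes) and 0 fell. The rise was Pcx, the pyruvate carboxylase (0.51 ± 0.12, adjusted p = 0.0461). G6pc, the glucose 6-phosphatase, stood at 6.38, 5.31 and 6.16 in chow 1 to chow 3 and 5.43, 4.86 and 4.91 in HFD 1 to HFD 3 without passing the threshold (-0.89 ± 0.31, adjusted p = 0.107).

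Dbp, an output gene of the circadian clock with a strong daily rhythm, spread over 3.77, 4.24 and 3.03 in chow 1 to chow 3 and 6.14, 5.81 and 3.45 in HFD 1 to HFD 3. It did not pass (1.45 ± 0.73, adjusted p = 0.221). Of 18 imprinted and fetal liver genes 3 rose and 2 fell (16.7% higher and 11.1% lower, against 4.42% and 7.47% of all genes). Among the rises were Afp, the fetal albumin (1.07 ± 0.24, adjusted p = 0.0408), and Snrpn (0.77 ± 0.14, adjusted p = 0.0265). The falls were Meg3 and H19, the latter at least 1.18-fold lower (adjusted p = 0.0182). With no HFD array well above background for H19, its adjusted p is no support for a fall. Serpina1b, an alpha-1-antitrypsin gene, stood at 8.69, 8.60 and 8.58 in chow 1 to chow 3 and 7.79, 7.98 and 7.94 in HFD 1 to HFD 3. It fell by 0.72 ± 0.10 (SE; adjusted p = 0.0158), and its paralog Serpina1c fell by 0.73 ± 0.14 (SE; adjusted p = 0.028); their probes may read each other's transcripts. Ccng1 and Lect2 kept their calls in each of the 6 fits that left out 1 array. Phlda3, Bax, Aen, Zmat3, Gadd45b, Inhba, Irs1, Pcx, Afp, Snrpn, H19, Serpina1b and Serpina1c each lost the call without 1 or more of chow 1, chow 2, chow 3, HFD 1, HFD 2 and HFD 3 (adjusted p up to 0.132). Bax, Zmat3, Pcx and Afp also missed the threshold with slide as a random block. Pcx, H19 and Serpina1c missed the threshold under 1 or more of no filter on dim probes, the filter over 9 arrays, normexp background correction, quantile normalization and the authors' deposited values.

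Housekeeping lists held few calls. All 43 ribosomal protein genes had negative differences, with a median of -0.23, and 3 fell (6.98%, near the 7.47% of all genes). Among these was Rpl10a (-0.47 ± 0.11, adjusted p = 0.0447), whose call was lost when any 1 of the 6 arrays was left out (adjusted p up to 0.123). In limma 0 genes were called among 31 proteasome subunits (median -0.03), 31 genes of the unfolded protein and integrated stress response (median 0.19) and 25 immediate early genes (median -0.06). At an unadjusted limma p under 0.05 were 5, 8 and 5 of them, against 5403 of all 16557 genes tested. Hspa5, the chaperone of the endoplasmic reticulum, stood at 6.23, 7.12 and 6.64 in chow 1 to chow 3 and 6.55, 6.69 and 7.34 in HFD 1 to HFD 3 (0.20 ± 0.29, adjusted p = 0.675). Of 25 acute phase genes 2 rose and 1 fell (8% higher and 4% lower, against 4.42% and 7.47% of all genes). The rises were Steap4, a metalloreductase, at -1.45, -1.08 and -0.79 in chow 1 to chow 3 and 0.31, 0.36 and 1.79 in HFD 1 to HFD 3 (1.92 ± 0.42, adjusted p = 0.039), and Il1rn, the interleukin 1 receptor antagonist (1.18 ± 0.26, adjusted p = 0.039). The fall was Serpina1b, and the list's score was highest in HFD 3, as given above. Steap4 lost its call when any 1 of chow 1, chow 2, chow 3 and HFD 2 was left out and Il1rn lost its call when any 1 of chow 1, chow 2, chow 3, HFD 1 and HFD 2 was left out (adjusted p up to 0.124). Steap4 and Il1rn also missed the threshold with slide as a random block.

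**Figure D5:**
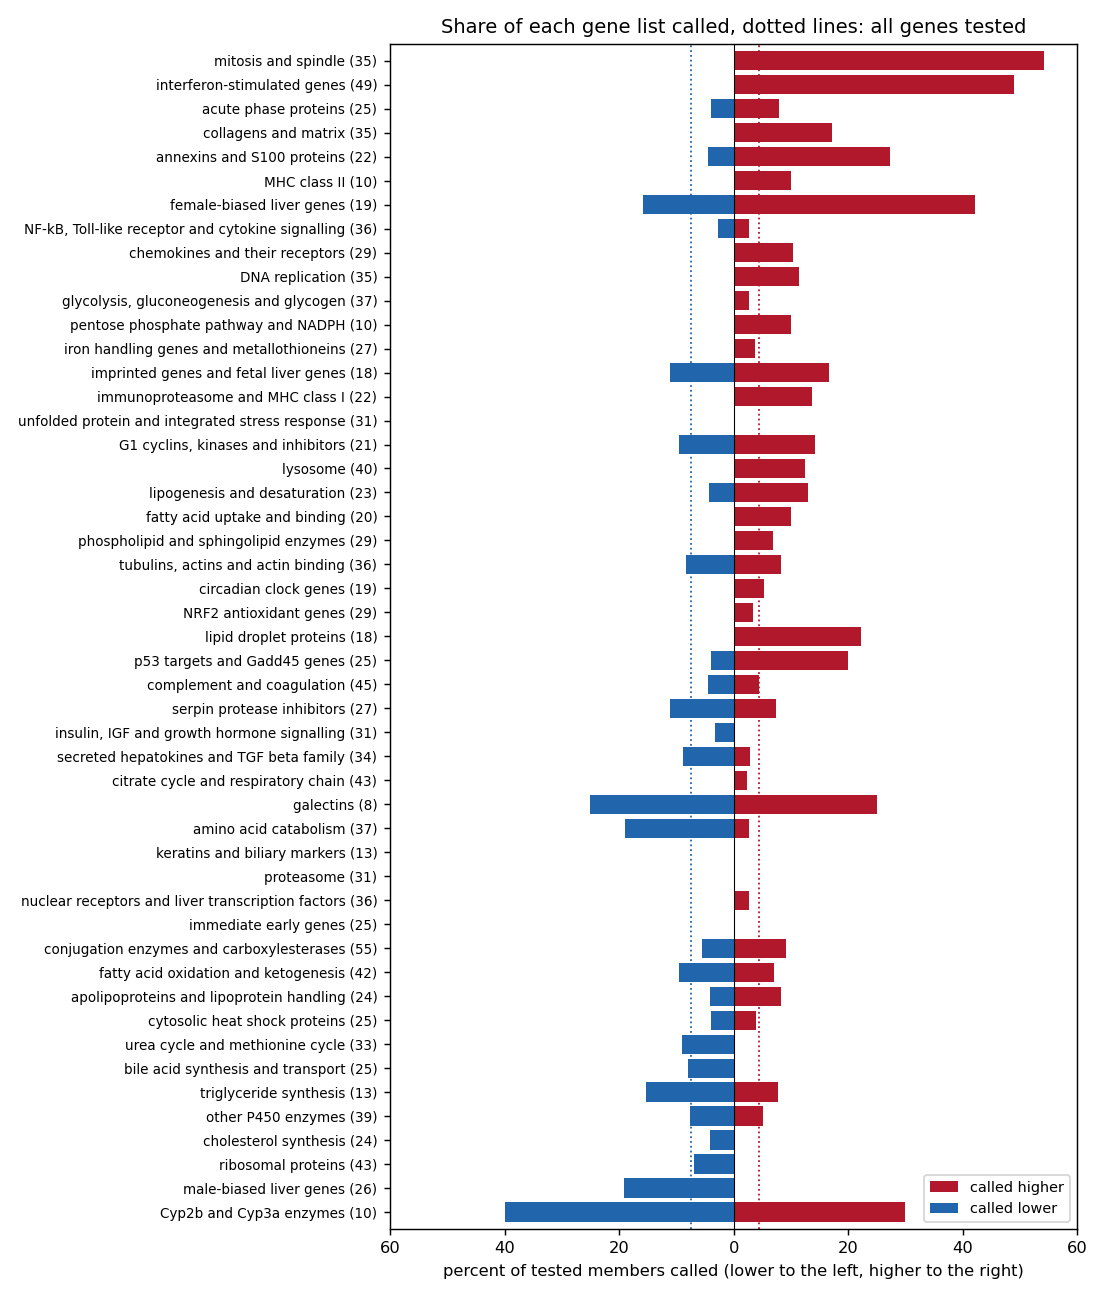
Percent of the tested members of each gene list called higher (red, right) or lower (blue, left) in HFD, ordered by the list's median difference, with the number tested in brackets and dotted lines at the shares over all genes, 4.42% and 7.47%. The mitosis and interferon lists reach 54.3% and 49% higher, and the Cyp2b and Cyp3a list has calls on both sides.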

How the data were processed

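Total RNA of 9 mouse livers was hybridised by the authors to 1-colour (Cy3) Agilent arrays; 6 arrays are compared here. The deposited intensity (processed signal) comes from Agilent Feature Extraction, version 10.7.1.1 per the file headers, while the submitters' processing notes give 10.7. It is background-subtracted and detrended within its array and not normalised between arrays, per the file headers. The authors' deposited table is on a log2 scale, judged from its values; its normalization is not given in the sources used here, and limma is named without a role in the submitters' processing notes. It correlated at 0.9969 or more with each array and served as an alternative.

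In R 4.3.3 (data.table, version 1.17.8), spots marked as outliers were left out, replicate spots averaged on the log2 scale, and each array's 75th percentile subtracted. Each array held 45018 spots, 1639 of them controls, none saturated; signals at that percentile were 209.7 to 265. Probes well above background on at least 3 of the 6 arrays entered (24755), and the brightest stood for its gene (16557 genes, 5612 with more probes, 3032 with the file's own name; names otherwise through RefSeq). Correlations across genes were 0.981 to 0.992 within and 0.962 to 0.979 between groups. HFD and chow were compared with limma 3.58.1 (lmFit, eBayes; 4 residual and 2.41 prior degrees of freedom), 2-sided, tested on simulated data. "At least N-fold" sets a group against the lowest signal well above background. Slide assignments come from the array identifiers. The number of arrays limits precision.

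The comparison and the 62 gene lists (1386 of 1556 distinct genes tested; 13 lists of cell type markers) were chosen with earlier results of these data known. Genes named are the 20 largest rises and falls with groups that do not overlap and names that are not clone-like, up to 6 called members per list with the smallest p, 5 markers and 24 fixed genes; others are marked or are list members given to complete a count. Alternatives covered background, scaling, filters, probe summary, the 9-array fits and each array left out. A few genes that the rule names are not reported here. Exon or intron position of probes was not determined.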

Additional observations from a re-analysis of the deposited data

How the results depend on the processing

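Without a filter on dim probes 3187 genes were higher and 1563 lower, and with normexp background correction 762 and 767. Over all 9 arrays with slide as a random block 344 were higher and 455 lower. The remaining settings gave 652 to 1012 higher and 978 to 1623 lower genes. With 1 array left out, higher genes numbered 105 (without chow 2) to 459 (without HFD 3) and lower genes 125 (without chow 2) to 921 (without HFD 1), from fewer samples and degrees of freedom. With the replicate number as a block 253 were higher and 368 lower, since the labels share the numbers 1 to 3. Deviations of same-numbered livers correlated at -0.0899, 0.113 and -0.0527, and those of differently numbered chow and HFD livers at -0.126 to 0.158. With 3 livers per group these values cannot decide whether the numbers pair the livers. Of 191 genes followed, 177 were called, 42 of them in all 18 alternatives, and 0 of the called genes changed direction. Groups of a called gene do not overlap, so leaving out 1 array could not reverse it. The 0 therefore speaks only for the other alternatives, and most of these genes were chosen by their calls. Among these genes, directions turned only for ones without a call: with 1 array left out, Fasn ranged over -0.41 to 0.018 (above 0 without chow 3), Srebf1 over -0.079 to 0.48 (below 0 without chow 2 and HFD 1), Hspa5 over -0.039 to 0.43 (below 0 without chow 1 and HFD 3) and Cyp7a1 over -0.62 to 0.20 (above 0 without chow 3, HFD 1 and HFD 3). Cyp7a1 was 0.019 with the mean of its probes and 0.042 with array weights, and Alb 0.033 in the authors' deposited table. The cause of these shifts was not tested. Signal over background limits the genes that no array of 1 group measured.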

Other observations

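Several genes outside the lists, all well above background on every array and named after their values were seen, were called, transporters among them. Slc22a29, of the organic anion family, stood at -2.83, -2.65 and -2.83 in chow 1 to chow 3 and 0.01, 0.10 and -0.56 in HFD 1 to HFD 3. It rose by 2.62 ± 0.19 (SE; adjusted p = 0.00369), and Slc22a7, which codes for the hepatic anion transporter OAT2, rose by 1.73 ± 0.29 (SE; adjusted p = 0.021). Slc13a3, a dicarboxylate carrier, rose by 2.23 ± 0.50 (SE; adjusted p = 0.0409), and by 1.62 without HFD 3, while Slco2a1, the prostaglandin transporter, stood at 3.65, 3.43 and 3.60 in chow 1 to chow 3 and 1.73, 2.03 and 1.90 in HFD 1 to HFD 3. It fell by 1.67 ± 0.12 (SE; adjusted p = 0.00372). Dio1, the deiodinase that activates and clears thyroid hormone in liver, stood at 2.81, 3.47 and 3.24 in chow 1 to chow 3 and 4.66, 4.90 and 5.04 in HFD 1 to HFD 3. It rose by 1.70 ± 0.20 (SE; adjusted p = 0.00956). Acot11, an acyl-CoA thioesterase, stood at -2.54, -3.10 and -2.63 in chow 1 to chow 3 and -0.86, -0.51 and -1.05 in HFD 1 to HFD 3. It rose by 1.95 ± 0.21 (SE; adjusted p = 0.00755), in the direction opposite to Acot1.

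Rcan2, a regulator of calcineurin, stood at -1.29, -0.81 and -1.38 in chow 1 to chow 3 and 1.26, 1.07 and 1.85 in HFD 1 to HFD 3. It rose by 2.55 ± 0.25 (SE; adjusted p = 0.00622). Wfdc2, a secreted protease inhibitor also known as HE4, stood at 1.59, 2.08 and 1.96 in chow 1 to chow 3 and 4.07, 3.54 and 4.06 in HFD 1 to HFD 3. It rose by 2.02 ± 0.20 (SE; adjusted p = 0.00657), and Gpc1, a glypican of the cell surface, rose by 1.90 ± 0.12 (SE; adjusted p = 0.00341). Sprr1a, a small proline-rich protein, rose by 1.97 ± 0.19 (SE; adjusted p = 0.00625). Etnppl, which breaks down phosphoethanolamine, fell by 1.67 ± 0.39 (SE; adjusted p = 0.043), and Ces2f, a carboxylesterase, fell by 1.86 ± 0.26 (SE; adjusted p = 0.0151). Ptk2b, a focal adhesion kinase, was called lower, but its probes disagreed, from -1.54 to 0.05. Slc22a29, Dio1, Rcan2, Wfdc2, Gpc1, Slco2a1, Acot11 and Sprr1a kept their calls in each of the 6 fits that left out 1 array. Slc22a7, Slc13a3, Ces2f and Etnppl each lost the call without 1 or more of chow 1, chow 2, chow 3, HFD 1 and HFD 2 (adjusted p up to 0.127).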
